A study of Mus musculus with 11 samples.

Results

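The 1871 regions described here are places near gene starts where the transcription factor PU.1 was called after 3 days of B cell stimulation and had no counterpart in the day 1 list. They were chosen by the peak calls themselves, from the 21382 regions of the PU.1 day 3 group list. A region was kept when no position of the PU.1 day 1 group list lay less than 200 bp away and when an annotated start of a protein-coding gene lay within 1 kb. The calls and enrichments of PU.1 are therefore given as descriptions with no test, and only sequence and IRF4 peaks, which the choice did not use, were tested. Distance to a start was part of the choice, so tests against PU.1 regions over 1 kb from a start also compare starts with other places.

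The cells were purified mature splenic B cells of B1-8i mice on the 129 background, which carry a gene-targeted antigen receptor against the hapten NP. All cultures received NP-Ficoll, CD40L, IL-2, IL-4 and IL-5. Chromatin immunoprecipitation with sequencing (ChIP-seq) was done at day 3, after differentiation into plasma cells, and at day 1, after activation and before differentiation. There were 2 PU.1 and 3 IRF4 libraries per day, called against 1 input library, a pool of 2 preparations from peripheral or immature B cells. Whether replicates were separate animals or cultures is not in the labels. The cells were not sorted by any mark that the labels name, and a bulk library cannot tell fewer bound cells from less binding per cell.

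PU.1 belongs to the Ets family, acts in B and myeloid cells, and binds a purine-rich site around the core GGAA. Other Ets factors such as GABPA and ELF1 are broadly expressed and prefer the related site CCGGAAGT, which is common in the CpG-rich starts of housekeeping genes. IRF4, which rises in plasma cells, binds DNA with PU.1 at a composite element with the core GGAANNGAA. PU.1 itself is known to decline as B cells become plasma cells.

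The sequences below are those of the leading regions, in mm9 and on the plus strand, read from the reference around the peak position. They are the 3 strongest members with no day 1 peak position less than 200 bp away (Ccdc115, Cib1, 2510012J08Rik), the strongest with one (Polm) and the strongest of the 4 members with peaks in 5 IRF4 libraries (Irf5). Capitals mark GAGGAAGT, the PU.1 site, CCGGAAGT, the site of most other Ets factors, and GGAANNGAA, the Ets-IRF core, on either strand. Where the peak lay in an untranslated region, 30 bases around the site, or around the peak where no site was found, are shown.
Ccdc115, chr1:34496318-34496347: acCCGGAAGTcaaaggcttcaACTTCCGGg
Cib1, chr7:87377498-87377527: ttctcacttccgtcctcggggccgcgtccc
2510012J08Rik, chr10:80783153-80783352: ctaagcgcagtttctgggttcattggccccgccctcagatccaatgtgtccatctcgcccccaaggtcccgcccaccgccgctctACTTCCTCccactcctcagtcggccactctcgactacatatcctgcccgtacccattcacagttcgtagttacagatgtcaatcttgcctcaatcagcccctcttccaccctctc
Polm, chr11:5737822-5737851: gaaggaggagaGAGGAAGTggtgtctgctc
Irf5, chr6:29479123-29479281: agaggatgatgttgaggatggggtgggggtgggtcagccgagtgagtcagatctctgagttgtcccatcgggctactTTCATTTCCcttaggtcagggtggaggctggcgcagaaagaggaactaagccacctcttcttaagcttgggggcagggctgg
The Ccdc115 stretch held a pair of Ets sites facing each other, the Polm stretch a PU.1 site next to the peak, and the Cib1 window none of the 3 motifs.

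Most members were not free of PU.1 peaks on day 1. Of the 1871, 1314 were called in a single day 1 PU.1 library: 986 (52.7%) in replicate 2 only and 328 (17.5%) in replicate 1 only. Another 4 (0.214%) were called in both, although neither position had entered the day 1 group list. That left 553 members (29.6%, 95% Wilson interval 27.5 to 31.7) with no day 1 position less than 200 bp away. Counted by overlap of the deposited intervals instead of positions, 505 members (27.0%) had no day 1 interval, and 71 (3.79%) overlapped one in both libraries. A library list gives 1 position per interval, so 56 members with a position in only 1 day 1 library overlapped intervals of both.

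The reverse class was smaller and was also mostly called on the other day. There were 804 day 1-only promoter regions, of which 663 (82.5%) were called in a day 3 library and 141 (17.5%) in none. Day 3-only distal regions, over 1 kb from a start, resembled the members: 1645 of 5367 (30.7%) had no day 1 library call. Their calls were less lopsided, with 44.9% in day 1 replicate 2 only and 24.3% in replicate 1 only.

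Both day 3 libraries hold every member by construction, but they did so with different strength. The group list was found to copy lines of day 3 replicate 1 that have a replicate 2 position no more than 200 bp away, and members' positions in the 2 libraries lay a median of 20 bp apart. The authors' fold enrichment over input ran between 15.1 and 690.3 in replicate 1, with a median of 38.5, and between 14.9 and 354.8 in replicate 2, with a median of 23.5. Ranked within its own library, the median member stood at percentile 57.1 in replicate 1 and at percentile 32.9 in replicate 2. In all, 1606 members (85.8%) ranked higher in replicate 1, against 83.98% of promoter regions of both days and 66.2% of day 3-only distal regions. Promoter regions of both days were stronger in each library, with median enrichments of 82.9 in replicate 1 and 53.5 in replicate 2.

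Each day 3 library alone held many more candidates. Replicate 1 had 5161 promoter peaks with no day 1 group-list position nearby, of which 1871 (36.3%) had a replicate 2 partner and 3290 did not. Replicate 2 had 2791 such peaks, of which 1875 (67.2%) had a replicate 1 partner and 916 did not. Those without a partner were weaker, with median enrichments of 21.2 in replicate 1 and 19.4 in replicate 2. With day 3 replicate 1 as the only day 3 list, 43.1% of the 5161 had a day 1 library call, and with replicate 2 alone 63.8% of the 2791 had one. With day 1 replicate 2 as the only day 1 list the members numbered 886, and with day 1 replicate 1 alone 1539.

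Absent day 1 calls were more common among weaker members. Ordered by their mean percentile over both day 3 libraries, 234 of the 468 weakest members (50%) had no day 1 library call, then 34.2% and 24.2% in the next groups, and 46 of the 468 strongest (9.83%). Calls in day 1 replicate 2 ran at 39.1%, 54.3%, 55.5% and 62.8% over the same 4 groups, and those in replicate 1 at 11.5%, 11.5%, 20.3% and 27.6%. Members with a day 1 call had a median enrichment of 42.4 in day 3 replicate 1 and 26.0 in replicate 2. Those with none had 30.1 and 19.7 in the same libraries.

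**Figure D1:**
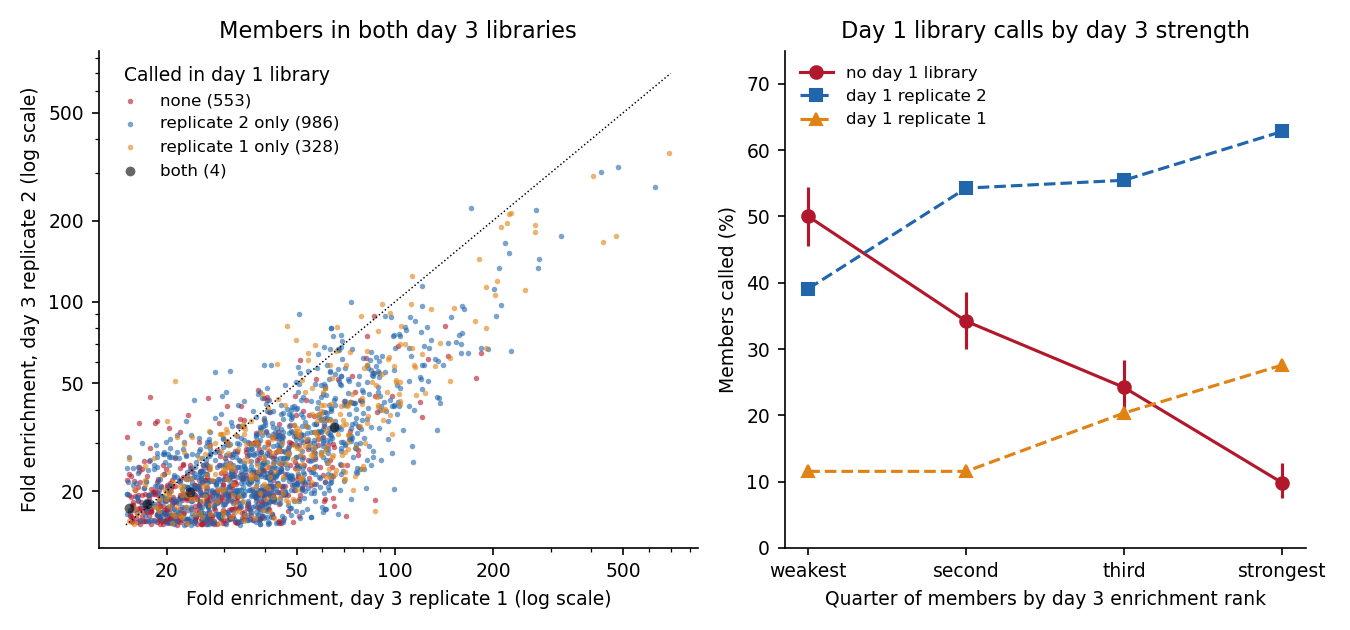
Left, the authors' fold enrichment of each of the 1871 members in day 3 replicate 1 (x axis) and replicate 2 (y axis), both on log scales, coloured by the day 1 library in which it was called; most points lie below the dotted line of equal values. Right, the percent of members called in neither day 1 library (red, with 95% Wilson intervals), in replicate 2 (blue) and in replicate 1 (orange), by group of day 3 strength; the red line falls to 9.83% in the strongest group, against 50% in the weakest.

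The libraries differed in how much of their signal lay at starts. Within 1 kb of a start lay 23.7% of the 34410 peaks of day 3 replicate 1 and 17.3% of the 34061 of day 3 replicate 2, against 15.8% of the 27321 of day 1 replicate 1 and 17.2% of the 38052 of day 1 replicate 2. With only the 27321 strongest peaks of each library the shares were 24.5% and 17.3% on day 3, against 15.8% and 17.5% on day 1. CpG-rich windows, of at least 50% G and C and an observed to expected CpG ratio of at least 0.6 over 200 bp, made up 13.6% and 8.31% of peaks on day 3, against 6.35% and 8.17% on day 1. Day 3 replicate 1 thus stood highest and day 1 replicate 1 lowest on both measures, and these are the libraries from which the lines of the group lists were copied. The part of this library difference in the number of members was not tested. The label of day 3 replicate 1 also carries a pair of title numbers.

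The day 3 libraries also differed in which strong peaks they list. Of the 2000 strongest peaks of day 3 replicate 1, 99.3% had a replicate 2 partner, but of the 2000 strongest of replicate 2 only 84.5% had a replicate 1 partner, 94.9% at starts and 83.2% away from them. On day 1 the values were 98.95% and 99.1%. Region numbers in the lists skip, and day 3 replicate 1 holds 79.3% of the numbers up to its highest, against 90.4% in day 3 replicate 2 and 88.3% and 87.6% on day 1. The sources used here do not say what happened to the skipped regions.

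**Figure D2:**
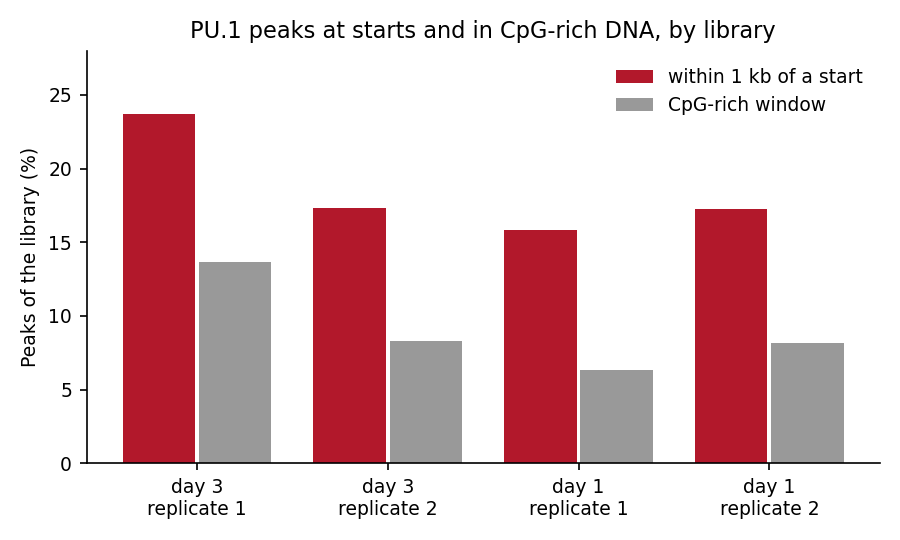
Percent of each PU.1 library's peaks that lay within 1 kb of a protein-coding start (red) and whose 200 bp window was CpG-rich (grey). Day 3 replicate 1 is highest on both, at 23.7% and 13.6%, and day 1 replicate 1 lowest, at 15.8% and 6.35%.

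Members sat close to the start and mostly upstream of it. The median position was 27 bp upstream, 1197 members (64.0%) lay upstream, and 872 (46.6%) lay within 100 bp, against 42.4% of promoter regions of both days and 25.4% of day 1-only promoter regions. The median distance was 120 bp, against 154.5 and 346.5 bp in those sets. By annotation, 759 members (40.6%) lay outside genes, 614 (32.8%) in an intron, 372 (19.9%) in an untranslated region and 73 in a coding exon. Starts on both strands lay within reach of 226 members (12.1%), against 9.15% of promoter regions of both days. These distances and shares are descriptions.

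Their distance to the day 1 list was usually large. The nearest day 1 group-list position lay at a median of 13401 bp, 755 members were at least 20000 bp away, and 45 lay between 200 and 500 bp. At the limit of 200 bp, regions at Ppp1r12c (206 bp, enrichment 34.4) and Ints6 (209 bp, 87.1) fell just inside the rule. Those at Rps3a (198 bp, 86.9) and Dek (195 bp, 43.8) fell just outside. At the limit of 1 kb, the region at Rhoa lay exactly 1000 bp and the one at Pik3ap1 998 bp from a start, while Egr2 (1001 bp) and Lpcat2 (1010 bp) fell just outside.

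**Figure D3:**
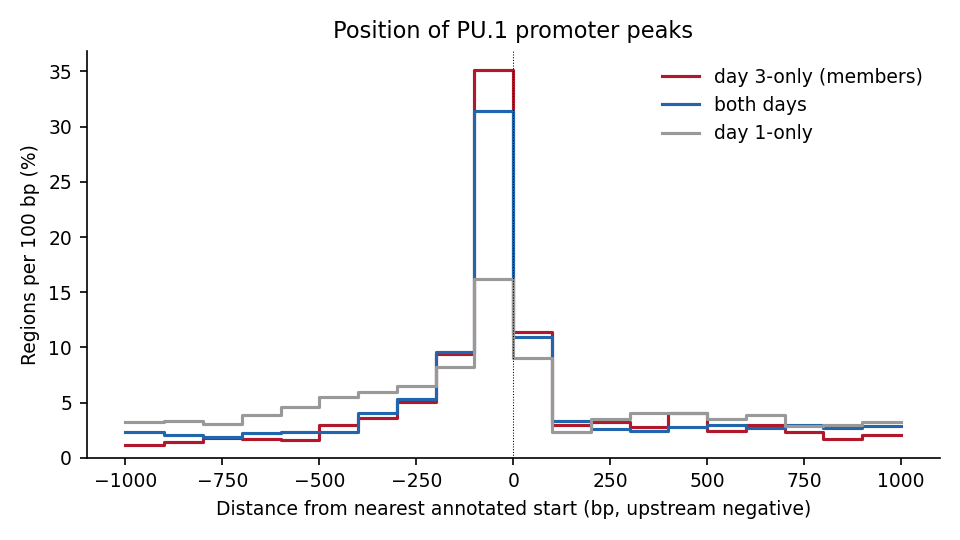
Percent of regions per 100 bp of distance from the nearest annotated start (x axis, bp, upstream negative) for day 3-only, both-day and day 1-only PU.1 promoter regions. The day 3-only and both-day curves peak in the 100 bp before the start, where the day 1-only curve is lower.

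The strongest member with no day 1 position less than 200 bp away lay 252 bp downstream of the start of Ccdc115, which assists assembly of the vacuolar proton pump, beside Imp4 of ribosomal RNA processing (chr1:34496045-34496471, enrichment 142.9 in day 3 replicate 1 and 81.4 in replicate 2). No day 1 interval overlapped it. The next lay 8 bp upstream of Cib1, a calcium-binding protein (chr7:87377333-87377808), with 183.6 in replicate 1 and 64.7 in replicate 2. The 2510012J08Rik region (chr10:80782719-80783844) had 145.7 and 63.

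The other 7 of this set were at Cdk14, a cyclin-dependent kinase, 1600002K03Rik, Rps25 of the small ribosomal subunit, Arhgdia, Bsdc1, Lcor, a corepressor of nuclear receptors, and Tfrc, the transferrin receptor for iron uptake. Their enrichments ran between 81.7 and 177.3 in day 3 replicate 1 and between 52.2 and 88.6 in replicate 2. For Arhgdia the libraries were far apart, with 177.3 in replicate 1 and 52.2 in replicate 2, while for Cdk14 they were close, with 86.2 and 88.6. Among all 10, day 1 intervals overlapped the regions at 2510012J08Rik, Cdk14, 1600002K03Rik, Rps25 and Bsdc1 although their positions lay 252 to 604 bp away. At Cdk14 both day 1 libraries had such an interval, with enrichments of 72.5 in replicate 1 and 132.1 in replicate 2, its positions 307 and 288 bp off. Ccdc115, Cib1, Arhgdia, Lcor and Tfrc had no overlapping day 1 interval.

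The strongest members of all were called on day 1 in 1 library. Polm encodes DNA polymerase mu, which takes part in end joining; its region (chr11:5737163-5738277, 44 bp upstream) had an enrichment of 690.3 in day 3 replicate 1 and 354.8 in replicate 2, against 304.5 in day 1 replicate 1. Day 1 replicate 2 listed 1 interval over the same stretch with an enrichment of 345.8, but with its position 483 bp away. Day 1 replicate 1 listed a further interval there, with an enrichment of 207.3 and its position 497 bp away. The nearest day 1 group-list position also lay 497 bp away, inside the member's interval. Dock10, a guanine nucleotide exchange factor, had 481.3 and 315.7 on day 3, against 317.7 in day 1 replicate 2 and no interval in replicate 1. The neighbouring genes Tor1aip1 and Tor1aip2, which encode partners of torsin at the nuclear envelope and the endoplasmic reticulum, held 3 members, of which 2 were among the 5 strongest. The one nearest Tor1aip1 had 627.2 and 266.8 on day 3 and 345.8 in day 1 replicate 2 alone, and the one nearest Tor1aip2 405.0 and 292.0 on day 3 and 207.3 in day 1 replicate 1 alone. Relt, a receptor of the TNF receptor family, had 429.0 and 303.1 on day 3 and 206.9 in day 1 replicate 2, where replicate 1 listed an overlapping interval with its position 384 bp off. At these places the day 1 libraries held strong peaks. The lack of a group-list position less than 200 bp away came with a call in 1 library only. At Polm and Relt the other library had an overlapping interval with its position elsewhere.

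The sequence under the members differed from that under other PU.1 regions. The PU.1 site GAGGAAGT was found in the 200 bp around 214 members (11.4%), against 21.5% of 2722 promoter regions of both days (two-sided Fisher's exact test, Benjamini-Hochberg adjusted over 15 feature tests, p = 7.52e-19), 19.3% of day 1-only promoter regions (adjusted p = 2.35e-07) and 21.9% of day 3-only distal regions (adjusted p = 1.6e-24). Regions are the units of these tests, they are not replicates of a condition, and p-values say nothing about the spread between libraries. As a baseline, windows of the same length were centred on the outermost annotated start of each of 22380 protein-coding genes (all gene starts). Of these windows, 2.26% held the site. The same letters read backwards were found in 1.5% of members and 1.51% of promoter regions of both days. Where members held the PU.1 site, it lay within 50 bp of the peak in 194 of 214 cases (90.7%). Without day 1 replicate 1, when the day 1 list is the whole of replicate 2, the shares were 12.2% of day 3-only and 13.2% of day 1-only promoter regions (adjusted Fisher's p = 0.527), so that difference ended.

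Sites of other Ets factors were more common. CCGGAAGT was found in 200 members (10.7%), against 6.21% of promoter regions of both days (Fisher's exact test, adjusted p = 1.06e-07), 2.86% of day 1-only promoter regions (adjusted p = 7.48e-13) and 0.876% of day 3-only distal regions (adjusted p = 1.86e-75). All gene starts held it in 4.2% of windows. It lay within 50 bp of the peak in 167 of 200 members (83.5%). In contrast, 1468 members (78.5%) held neither exact site and 11 held both; an absent match says only that these letters are not in the window. Against promoter regions of both days the difference did not pass without day 1 replicate 1, at 9.26% and 7.74% (adjusted Fisher's p = 0.185). The day 1 list is then the whole of replicate 2, so the library cannot be told apart from the change of list. Among members with no day 1 library call the share was 10.8%, against 6.21% (adjusted Fisher's p = 0.000311).

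CpG-rich DNA made up more of the members as well. It covered 54.3% of their windows, against 39.8% of promoter regions of both days (Fisher's exact test, adjusted p = 1.29e-21), 25% of day 1-only promoter regions (adjusted p = 3.88e-45) and 2.66% of day 3-only distal regions, for which the test returned a p too small to be held. Those distal regions lie away from starts by the rule, so this contrast and that in CCGGAAGT also compare starts with other places. Members also lay closer to starts than day 1-only promoter regions, at a median of 120 against 346.5 bp. None of these contrasts was matched for distance to the start. The share at all gene starts was 48.5%. Median G and C content was 58.5% in members, 54.5% in promoter regions of both days and 51.0% in day 1-only promoter regions. Here too the first difference did not pass without day 1 replicate 1, the library with the fewest CpG-rich peaks. With the whole of replicate 2 as the day 1 list, 48.2% of members and 45.1% of promoter regions of both days were CpG-rich (adjusted Fisher's p = 0.145). Among members with no day 1 library call the share was 55.0%, against 39.8% (adjusted Fisher's p = 2.07e-10). Against day 1-only promoter regions the difference of 29.3 percentage points was 13.2 without day 1 replicate 1 and 14.1 without day 3 replicate 1, and both still passed. Between the members' quartiles of enrichment, 58.2% of members and 33.0% of promoter regions of both days were CpG-rich, and 11.5% and 4.05% held CCGGAAGT (adjusted Fisher's p = 2.16e-23 and 7.47e-08).

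The members differed among themselves by the day 1 library that called them. Of the 328 called in day 1 replicate 1 only, 37.2% were CpG-rich, 17.1% held the PU.1 site and 6.71% the CCGGAAGT site. Of the 986 called in replicate 2 only, 59.7% were CpG-rich, 10.8% held the PU.1 site and 12.0% the CCGGAAGT site. The 553 with no day 1 call stood nearer to those of replicate 2, at 55.0%, 9.22% and 10.8% for the same features. No test was made within the members, since the day 1 calls belong to the same contrast that chose them.

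**Figure D4:**
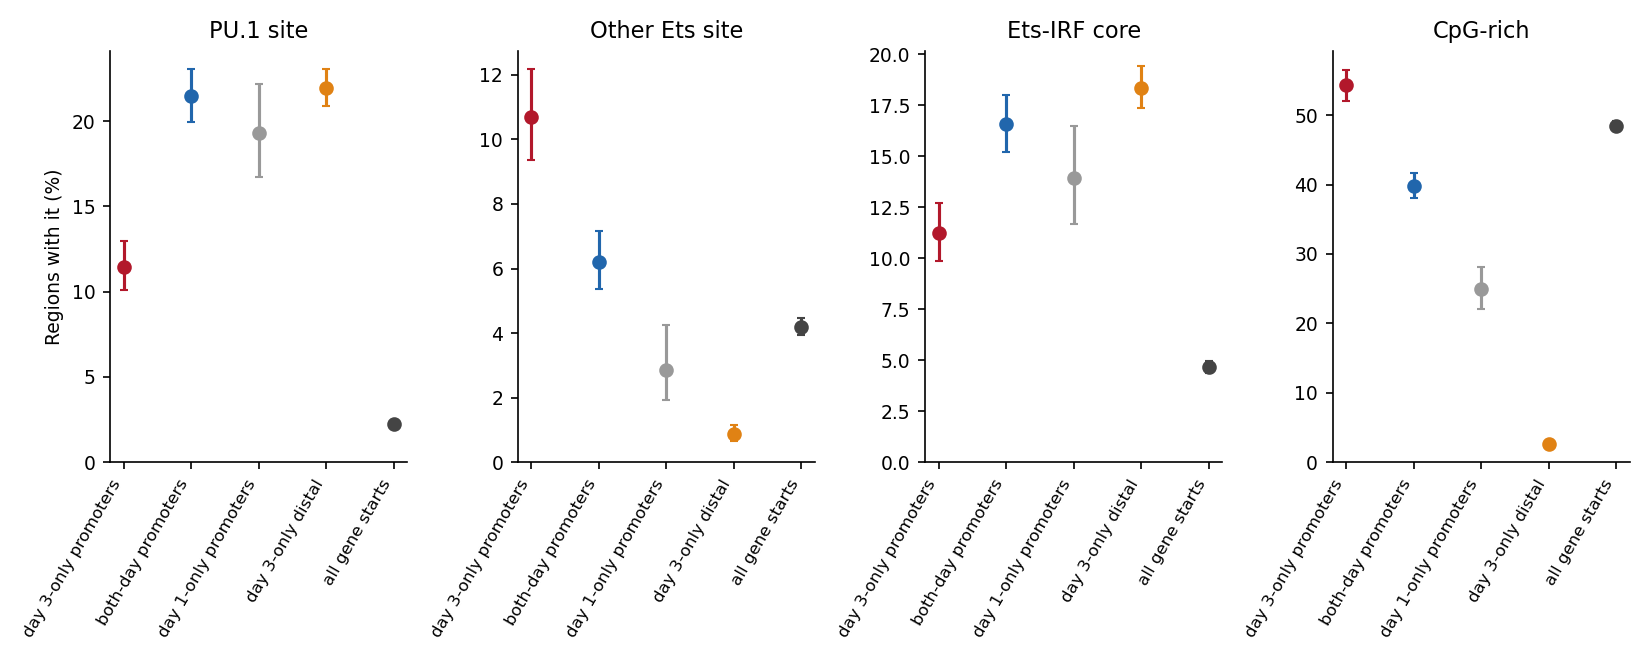
Percent of regions (points, with 95% Wilson intervals) whose 200 bp window held the PU.1 site GAGGAAGT, the other Ets site CCGGAAGT, the Ets-IRF core GGAANNGAA, or was CpG-rich, in day 3-only promoter regions, 3 other PU.1 sets and all gene starts. Day 3-only promoter regions are lowest of the PU.1 sets for the PU.1 site, at 11.4%, and highest for the CCGGAAGT site, at 10.7%, and for CpG-rich DNA, at 54.3%.

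The GC and CCAAT boxes, common promoter elements, were near their level at all gene starts. The GC box GGGCGG was found in 39.8% of members and 40.0% of all starts, and the CCAAT box in 25.6% of members and 27.4% of all starts. The TATA box TATAAA was found in 3.42% of members and 8.18% of all starts. The NRF1 site CGCATGCG, bound by a regulator of mitochondrial genes, was found in 2.89% of members and 1.79% of all starts. The interferon-response core GAAANNGAA was found in 8.02% of members, 9.63% of promoter regions of both days and 5.31% of all starts. Member windows were centred on the PU.1 peak and those of all starts on the start itself, so they cover unlike positions. These shares were not tested.

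IRF4 was rare at the members on both days. A position of the IRF4 day 3 group list lay less than 200 bp from 16 of 1871 members (0.855%), against 4.70% of promoter regions of both days (Fisher's exact test, adjusted p = 4.65e-15), 1.81% of day 3-only distal regions (adjusted p = 0.00381), and 1.87% of day 1-only promoter regions with the IRF4 list of their own day (adjusted p = 0.0326). Among regions between the members' quartiles of PU.1 enrichment, 26.3 and 56.6, 0.640% of members and 0.434% of promoter regions of both days held IRF4 (adjusted Fisher's p = 0.741). The comparison with day 1-only promoter regions used IRF4 group lists of unlike length, 2496 regions on day 1 and 1964 on day 3. The part of that length was not tested. The day 1-only difference turned to 0.0973 percentage points without PU.1 day 1 replicate 1 (adjusted Fisher's p = 0.832) and was -0.634 without PU.1 day 3 replicate 1 (adjusted p = 0.271). The distal difference was -0.379 without PU.1 day 3 replicate 1 (adjusted Fisher's exact p = 0.0999) and -0.750 between the same quartiles (adjusted Fisher's exact p = 0.0942).

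By library, IRF4 peaks lay at 1.02%, 0.534% and 4.12% of members on day 3 and at 0.267%, 3.58% and 3.42% on day 1, in the order of replicates 1, 2 and 3. The days overlapped, with means of 1.89% ± 1.94 on day 3 and 2.42% ± 1.87 on day 1 (SD, n = 3 each). The difference of -0.534 percentage points was within the spread (exact permutation test, two-sided, p = 1, where 0.1 is the smallest possible). It turned to 0.0445 without IRF4 day 1 replicate 2 and to 0.143 without IRF4 day 3 replicate 2, was -1.61 without day 1 replicate 1, -0.0356 without day 1 replicate 3, -0.098 without day 3 replicate 1 and -1.65 without day 3 replicate 3. The IRF4 lists differed in length, with peak numbers of 2784, 1408 and 5595 on day 3, against 825, 9326 and 8929 on day 1. Within each day the shortest list had the lowest share and the longest the highest, but the highest share of all was not in the longest list, and the part of list length was not tested. In all, 177 members had a peak in some IRF4 library, 140 of them in 1 library, and none in all 6. A single member was called in every IRF4 day 3 library and in no day 1 library.

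The composite core GGAANNGAA was found in 11.2% of members, against 16.6% of promoter regions of both days (Fisher's exact test, adjusted p = 4.2e-07), 18.4% of day 3-only distal regions (adjusted p = 3.31e-13) and 13.9% of day 1-only promoter regions, where the difference did not pass (adjusted p = 0.0519). That difference was -4.79 percentage points and passed without PU.1 day 3 replicate 2 (adjusted Fisher's exact p = 0.00112), and was 0.339 without PU.1 day 1 replicate 1 and 0.909 without PU.1 day 3 replicate 1, neither passing. All gene starts held it in 4.66% of windows. Between the same quartiles of enrichment the shares were 12.0% of members and 12.9% of promoter regions of both days (adjusted Fisher's p = 0.685).

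The members with peaks in the most IRF4 libraries, ties taken by PU.1 strength, were at Irf5, Hjurp, Psap, Lgals8 and Ell3. Irf5, an interferon regulatory factor, had IRF4 peaks in 3 day 3 and 2 day 1 libraries, each less than 200 bp from the PU.1 position. Its PU.1 enrichment was 205.1 and 119.3 in day 3 replicates 1 and 2, against 83.9 in day 1 replicate 1 and no call in day 1 replicate 2. Hjurp, the chaperone of the centromeric histone, had IRF4 in the same numbers of libraries and PU.1 at 154.4 and 70.8 on day 3, against 77.0 in day 1 replicate 2. Lgals8, a galectin, also had IRF4 in 3 day 3 and 2 day 1 libraries; Psap, the precursor of lysosomal saposins, had 2 and 2, and Ell3, an RNA polymerase II elongation factor, 2 and 3.

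Members lay within 1 kb of a start of 1986 of 22380 protein-coding genes, that is 8.87% of genes, against 12.3% of genes with a promoter region of both days and 3.77% with a day 1-only one. Of the 1986 genes, 307 (15.5%) also had a promoter region of both days and 132 (6.65%) a day 1-only one. In 24 of 28 gene lists the share of genes with a member was above 8.87%, among them histone genes at 8.96% and zinc finger genes at 9.18%. In most of the lists the share with a both-day region was above its 12.3% too, so the count is not particular to members. No list was tested, and the part of the library differences in these counts was not tested either.

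The highest share was that of the aminoacyl-tRNA synthetases. Of 37 such genes, which charge tRNAs for translation, 14 (37.8%) had a member, against 5 with a promoter region of both days and 1 with a day 1-only one. Rars, for arginine, had enrichments of 122.8 and 69.0 in day 3 replicates 1 and 2, against 53.3 in day 1 replicate 2 alone, and Farsa, for phenylalanine, had 87.3 and 49.3 on day 3, against 17.5 in day 1 replicate 1 alone. Of the 14, 1 had no day 1 library call, against 29.6% of all members. Of 67 genes of protein translocation and vesicle transport, 22 (32.8%) had a member, against 13 with a both-day region. They included Copb2, a coatomer subunit, with 98.9 and 75.2 on day 3, against 60.1 in day 1 replicate 2, and Sec11a of the signal peptidase, with 66.9 and 56.4 on day 3, against 54.4 in day 1 replicate 2. Trappc4, of the TRAPP tethering complex, shares its region with Rps25 and had no day 1 call less than 200 bp away. Intervals of both day 1 libraries overlapped that region, as given above.

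Of 48 proteasome genes, 14 (29.2%) had a member and 10 a both-day region, among them Psme2, an activator subunit, and Psmd7 and Psmd3 of the regulatory particle. Of 66 translation factor genes, 17 (25.8%) had one and 20 a both-day region, with Eif4ebp2, a repressor of cap-dependent initiation, at 148.7 and 88.2 on day 3, against 55.3 in day 1 replicate 2. Of 38 genes of the unfolded protein response, which guards folding in the endoplasmic reticulum, 9 (23.7%) had a member and 10 a both-day region. Of these, Dnajc3, a co-chaperone, had 27.0 and 33.2 on day 3, against 20.1 in day 1 replicate 1, and Ero1lb, an oxidase for disulphide bonds, 42.5 and 21.9 on day 3 and no day 1 call. Of 82 cytosolic ribosomal protein genes, 13 (15.9%) had a member and 34 (41.5%) a both-day region. Rpl6, of the large subunit, had 124.1 and 46.0 on day 3, against 25.5 in day 1 replicate 1.

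Members were also found at 17 of 74 splicing genes (23%), where 26 genes had a both-day region, 10 of 44 DNA repair genes (22.7%), 16 of 76 mitochondrial ribosomal genes (21.1%) and 12 of 61 genes of DNA replication and the cell cycle (19.7%). The DNA repair genes included Lig4 of end joining, with 121.1 and 37.4 on day 3 and no day 1 call, and Brca1. Zinc finger genes were at the background, with 36 of 392 (9.18%), and histone genes too, with 6 of 67 (8.96%). The ubiquitin system had 25 of 171 (14.6%), chromatin regulators 15 of 83 (18.1%), RNA polymerase, Mediator and general factor genes 18 of 102 (17.6%), the respiratory chain 15 of 91 (16.5%), and lysosome and autophagy genes 16 of 95 (16.8%). Both-day regions were found at 9 DNA repair, 12 mitochondrial ribosomal, 13 replication and cell cycle, 72 zinc finger, 8 histone, 26 ubiquitin system, 16 chromatin regulator, 17 polymerase and Mediator, 12 respiratory chain and 21 lysosome and autophagy genes. Day 1-only regions were found at 3 splicing, 5 DNA repair, 4 mitochondrial ribosomal, 3 replication and cell cycle, 19 zinc finger and 1 histone genes. They were also found at 4 ubiquitin system, 6 chromatin regulator, 5 polymerase and Mediator, 4 respiratory chain and 4 lysosome and autophagy genes.

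Among lists of B cell function, 6 of 20 receptor and identity genes (30%) had a member and 13 a both-day region. All 6 were called in a day 1 library, as were 70.4% of all members. Btk, the kinase below the B cell receptor, had 171.6 and 222.1 on day 3, against 205.4 in day 1 replicate 2, and Plcg2, its phospholipase substrate, 78.8 and 33.8 on day 3, against 48.5 in the same day 1 library. Of 28 Ets and IRF genes, 9 (32.1%) had a member: Irf5, Gabpa, Irf9, Etv6, Irf3, Elf1, Etv5, Elk3 and Irf7, of which the region at Gabpa, shared with Atp5j, had 99.1 and 58.0 on day 3, against 23.1 in day 1 replicate 1. Antigen presentation genes counted 4 of 17, interferon-stimulated genes 4 of 23, activation genes 3 of 20 and germinal centre genes 2 of 20. Both-day regions were found at 8 genes of each of the first 3 of these lists, at 3 germinal centre genes and at 9 Ets and IRF genes. Day 1-only regions were found at 6 Ets and IRF genes (21.4%), against 3.77% of all genes. They were also found at 2 antigen presentation, 1 interferon-stimulated, 4 activation, 1 germinal centre and 1 receptor and identity genes.

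No plasma cell gene of 20 had a member, while 6 had a both-day region. At the starts of the plasma cell markers Prdm1, Xbp1, Sdc1 and Tnfrsf17 no PU.1 library had a peak, Irf4 had one in 2 day 3 and 0 day 1 libraries, and Igj in 1 day 3 and 0 day 1 libraries; neither was a member. Of 10 B cell markers, Cd79a, Cd79b, Ms4a1, Cd22, Cd74 and Blnk had a PU.1 peak at a start in all 4 libraries. Markers of other cells counted 2 of 20 for myeloid cells (Csf2ra and Cebpb), 1 of 20 for T and NK cells (Lck), 0 of 15 for erythroid cells and megakaryocytes, and 0 of 20 for neuron and liver. Both-day regions were found at 3, 3, 1 and 1 genes of these lists. The Wilson interval of each list's share with a member held the 8.87% of all genes. The files hold no expression, so the state of the cells could not be checked by RNA.

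**Figure D5:**
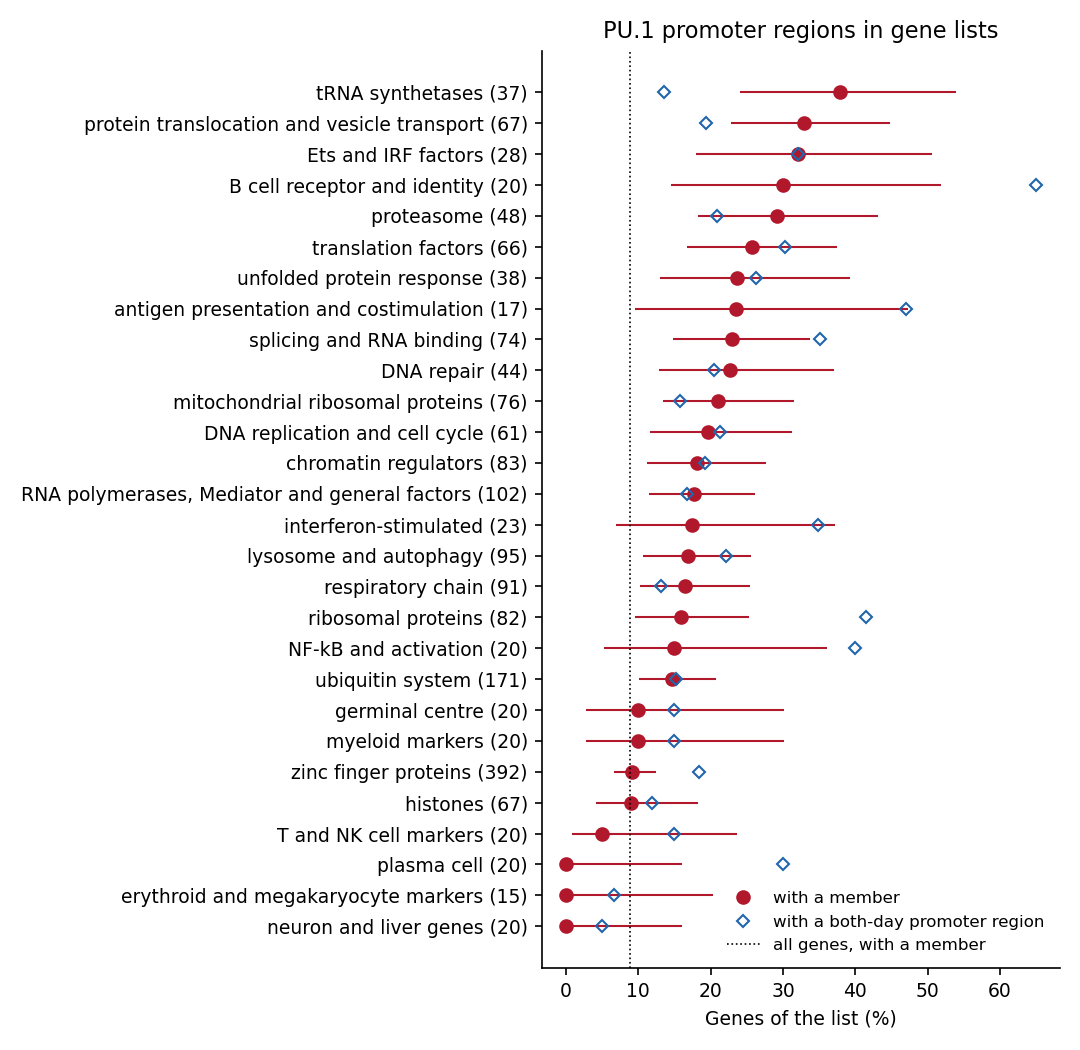
Percent of genes in each of 28 lists (number of genes in brackets) with a day 3-only promoter region within 1 kb of a start (red points, with 95% Wilson intervals) and with a promoter region of both days (blue diamonds). The dotted line is the share of all genes with a day 3-only one, 8.87%; aminoacyl-tRNA synthetases stand highest at 37.8%.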

How the data were processed

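Peaks were called against input with QuEST on mm9, per the series' design text; version, thresholds and aligner are not stated there. Each deposited list gives intervals, a peak position and the fold enrichment computed by the authors (a ratio on a linear scale, relative to input), used here only to describe, rank or filter peaks. There were lists per library and per group. The lists hold no read counts, so depth is unknown, and p-values over libraries measure a spread that may be technical. Peak positions are the deposited ones; their first base number is unstated, and 1 was assumed when reading sequence.

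Python 3.11.15, pandas 2.3.3, numpy 2.4.6 and scipy 1.17.1 were used. Starts were those of all transcripts of 22380 protein-coding genes in GENCODE M1, which is on mm9. For shares at all gene starts, only the outermost start of each gene was used. Features were compared with two-sided Fisher's exact tests, adjusted by Benjamini-Hochberg over 15 tests, and IRF4 shares with exact permutation tests. Wilson intervals cover counting error only. The code was tested on simulated data. The regions and gene lists were chosen with earlier results of these data known. Regions named in the text were the 10 and 5 members with the highest mean percentile without and with a day 1 call, the 5 with most IRF4, up to 4 genes a list and those next to each limit. The values of 1 gene that this rule names are not reported here.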

Additional observations from a re-analysis of the deposited data

How the results depend on the processing

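The number of members stayed between 1292 and 2333 with other distances, other starts or only the stronger 50% of each list, and was 1875 with lines taken from day 3 replicate 2, an alternative chosen after seeing the data. Leaving out a PU.1 library gave between 886 (without day 1 replicate 1) and 5161 (without day 3 replicate 2). The share with a day 1 library call, 70.4%, was 67.7% at 100 bp, 73.0% at 500 bp, 56.8% with library lists of equal length and 73.0% by overlap of intervals, the last chosen after seeing the data. It was 43.1% without day 3 replicate 2 and 63.8% without day 3 replicate 1; leaving out a day 1 library gives no value, since the remaining one then defines the members.

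Of 114 feature comparisons under alternatives, 100 kept their direction and side of the threshold. In the same range of enrichment, the differences for IRF4 were 0.206 percentage points against promoter regions of both days and -0.750 against day 3-only distal regions, and for GGAANNGAA -0.927 against promoter regions of both days. Among members with no day 1 call the IRF4 difference from day 1-only promoter regions was -1.32, and with a window of 400 bp the GGAANNGAA difference from them was -4.26. Leaving out a PU.1 library gave 1.51 to 5.31 for CCGGAAGT and 3.06 to 18.5 for CpG-rich windows against promoter regions of both days. Against day 1-only promoter regions it gave -14.0 to -1.05 for GAGGAAGT, -1.41 to 0.0973 for IRF4, and -4.79 to 0.909 for GGAANNGAA, also 0.339 without day 1 replicate 1. Against day 3-only distal regions it gave -1.16 to -0.379 for IRF4. The cause was not tested.

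The IRF4 difference between days was 0.0713 percentage points with lists of equal length and between -1.65 and 0.143 without 1 IRF4 library, also 0.0445. With same-numbered replicates as a replicate block it was -0.534 (exact sign-flip test, p = 1); the labels do not say what a number shares. In gene lists, 22 instead of 24 stood above all genes at 500 bp and at 2 kb. With 2 PU.1 libraries per day and no read counts, a missing call cannot be told apart from a peak just under the authors' threshold.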
